A study of Mus musculus with 8 samples.

Results

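The integrins described here are 9 genes of the alpha and beta chains that T cells use to enter tissues and to stay in them: Itga4, Itgb1, Itgb7, Itgae, Itga1, Itgal, Itgb2, Itgav and Itgax. They were taken by symbol from tables of 31053 genes in experiment 1 and 32285 genes in experiment 2, and all 9 were found in each of the 4 expression libraries. Their raw counts of unique molecular identifiers (UMIs, 1 per captured RNA molecule) were read in CD8 T barcodes, that is in droplets with at least 500 genes, under 10% mitochondrial UMIs, at least 1 UMI of Cd8a or Cd8b1 and at least 1 UMI of Cd3d, Cd3e or Cd3g. No measured value of an integrin entered that choice.

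An integrin on the cell surface is a pair of an alpha and a beta chain, and most chains have several possible partners, so a single RNA does not say which receptor a cell carries. Alpha 4 pairs with beta 1 to bind VCAM-1 and fibronectin or with beta 7 to bind MAdCAM-1 of gut vessels, alpha E pairs with beta 7 to bind E-cadherin on epithelium, and alpha 1 with beta 1 binds collagen. Alpha L with beta 2 is LFA-1, the receptor for ICAM-1 in the immune synapse and in vessel arrest. Alpha E and alpha 1 (CD103 and CD49a) are widely used to mark resident memory T cells, while the alpha X chain (CD11c) is best known from dendritic cells and macrophages and also appears on some activated T cells.

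All mice were wild type C57BL/6 with tumours of MC38, a mouse colon carcinoma line. In experiment 1 they received buffer or 10 mg/kg of rhIL-7-hyFc, a long-acting human interleukin-7 fused to an Fc, under the skin, with tumours taken 7 days after it, and CD8 T cells were enriched with magnetic beads. In experiment 2 both groups received 1.25 mg/kg of rhIL-7-hyFc, and the combination group also received a T cell engager (TCE) that binds mouse PD-L1 and CD3 epsilon and was given into a vein. Its labelled schedule, 3 times daily and 3 days after rhIL-7-hyFc, can be read in more than 1 way. Those tumours were taken 24 hours after the last treatment, and viable CD45+ TCRb+ CD8a+ cells were sorted. Each group was 1 library, and the labels do not give the number of mice pooled into it, so no test across samples was possible, every interval below is a 95% interval for counting error only, and no p-value is given. The experiments differ in dose, schedule and isolation and were not compared with each other. There was no group without rhIL-7-hyFc in experiment 2.

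The CD8 T barcodes numbered 3975 of 5589 in the buffer library, 5622 of 6361 with rhIL-7-hyFc 10 mg/kg, 10888 of 12560 with rhIL-7-hyFc 1.25 mg/kg and 10933 of 11501 in the combination library, with median depths from 6700 to 9726 UMIs. T cell markers were present throughout: 6 of 6 (Cd3d, Cd3e, Cd3g, Trac, Cd2 and Lck) were detected in each library. Cd3d, Cd3e and Cd3g were also used to choose the barcodes, so their detection is no separate sign of T cells. Trac, which was not used, lay between 244.8 and 287.7 CPM (UMIs of a gene in each 1000000 UMIs summed). RNA of other cells was present too and differed between the libraries of each experiment. CD8 T barcodes with 2 or more UMIs of 10 macrophage and monocyte genes made up 36.9% of the buffer library, 6.56% with rhIL-7-hyFc 10 mg/kg, 37.8% with rhIL-7-hyFc 1.25 mg/kg and 8.76% of the combination. The summed level of that list was 1088 and 272.0 CPM in experiment 1 and 3398 and 836 CPM in experiment 2. Each integrin was therefore also read in the barcodes with under 2 such UMIs, called macrophage-low below (2508, 5253, 6767 and 9975 barcodes). Barcodes with 2 or more beta chains of the T cell receptor (TCR), which a doublet would give, made up 5.43% to 8.56%, and no doublet caller was run. Between 45 and 195 barcode sequences were shared by a pair of expression libraries.

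The 250 bases before the start site of 4 of these genes are shown. Itga1 and Itgav were taken because their patterns over cell states were the most similar of any pair of members other than Itgae. Itgb7 had the opposite pattern, and Itga4 differed the most between treatments in experiment 2 over all CD8 T barcodes. These bases come from the RefSeq table of build GRCm38.p6 and end at the RefSeq start site. For Itgb7 that site lies a few bases inside the gene as the GENCODE annotation gives it. The table matched 6 of the 9 genes. Each reads 5′ to 3′ on the gene's strand, with capitals for matches to TGTGGT (RUNX), TCACAC (T-box) or GGGCGG (GC box) on either strand. Itga4 is chr2:79255176-79255425 on the plus strand, Itgb7 chr15:102231936-102232185 on the minus strand, Itga1 chr13:115101965-115102214 on the minus strand and Itgav chr2:83724147-83724396 on the plus strand.
Itga4: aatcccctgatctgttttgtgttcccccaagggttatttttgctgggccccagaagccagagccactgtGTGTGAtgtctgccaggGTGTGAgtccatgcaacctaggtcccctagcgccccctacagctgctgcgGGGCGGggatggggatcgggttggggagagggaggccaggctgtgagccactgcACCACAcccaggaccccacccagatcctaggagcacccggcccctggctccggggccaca
Itgb7: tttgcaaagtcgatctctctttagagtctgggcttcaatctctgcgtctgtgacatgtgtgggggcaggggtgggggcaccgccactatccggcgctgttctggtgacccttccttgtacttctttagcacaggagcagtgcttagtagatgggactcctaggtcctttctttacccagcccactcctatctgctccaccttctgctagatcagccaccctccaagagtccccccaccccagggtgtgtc
Itga1: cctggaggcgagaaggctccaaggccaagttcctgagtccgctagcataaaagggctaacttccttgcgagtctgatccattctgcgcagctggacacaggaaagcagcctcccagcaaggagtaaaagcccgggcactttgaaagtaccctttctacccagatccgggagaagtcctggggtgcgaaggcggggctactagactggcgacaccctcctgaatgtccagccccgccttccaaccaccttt
Itgav: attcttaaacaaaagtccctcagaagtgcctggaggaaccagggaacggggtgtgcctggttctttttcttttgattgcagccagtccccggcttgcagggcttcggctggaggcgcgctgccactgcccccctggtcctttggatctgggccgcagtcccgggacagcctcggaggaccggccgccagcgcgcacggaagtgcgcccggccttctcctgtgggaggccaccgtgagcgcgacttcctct
Itga4 held 1 RUNX match, 2 T-box matches and 1 GC box, and the other 3 held no match. Of 32851 promoter windows of this length, 14.0% held the RUNX letters, 12.3% the T-box letters and 32.7% the GC box letters. A match is a description of these letters and no evidence of binding.

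In GRCm38 coordinates of the GENCODE annotation Itga4 spans chromosome 2 from 79255426 to 79333123, Itgav chromosome 2 from 83724397 to 83806916, Itgb7 chromosome 15 from 102215995 to 102231944 and Itga1 chromosome 13 from 114953096 to 115101964. Itgb1 lies on chromosome 8 from 128685654 to 128733200, Itgae on chromosome 11 from 73090583 to 73147446, Itgal on chromosome 7 from 127296260 to 127335138, Itgax on chromosome 7 from 128129547 to 128150657 and Itgb2 on chromosome 10 from 77530252 to 77565708. In 3 cases an overlapping gene shares exon bases with a member: Cerkl, antisense to Itga4 (1.33 to 2.24 CPM), Gm49395 on the strand of Itga1 (0.510 and 0.278 CPM in experiment 1) and Gm13684, antisense to Itgav (under 0.1 CPM in experiment 2). No label or header says whether the counting used strand, so reads of those pairs cannot be fully told apart.

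Every chain but Itgae was measured, which here means at least 5 CPM in 1 of the libraries compared. Itga4, the chain of lymphocyte homing, was at 50.8 CPM in buffer, 14.0 CPM with rhIL-7-hyFc 10 mg/kg, 35.8 CPM with rhIL-7-hyFc 1.25 mg/kg and 64.7 CPM in the combination. Itgb1, its beta partner and that of alpha 1 and alpha V, was at 146, 108, 136 and 138 CPM in the same order. Itgb7, the beta chain of the gut-homing and epithelial receptors, was at 76.7, 164, 92.7 and 106 CPM. Itga4 and Itgb7 thus had opposite orders in experiment 1, the first high in buffer and the second high with rhIL-7-hyFc. Itgae, the alpha chain of CD103, was at 2.43, 2.16, 2.38 and 2.05 CPM, from 100 to 261 UMIs a library, and neither experiment separated its libraries beyond counting error. Itga1, the collagen-binding chain of CD49a, was at 18.4, 5.35, 24.4 and 21.9 CPM, and Itgav, the alpha chain of receptors for RGD-bearing matrix and latent TGF-beta, at 98.6, 31.9, 61.3 and 68.5 CPM. Both were lower with rhIL-7-hyFc 10 mg/kg than in buffer. Itgal was at 121, 141, 154 and 160 CPM and its partner Itgb2 at 351, 244, 329 and 279 CPM, with less distance between the libraries of an experiment. Itgax was at 12.6, 6.54, 22.2 and 20.6 CPM over all CD8 T barcodes and at 7.65, 4.92, 6.31 and 20.5 CPM in the macrophage-low ones. The set of barcodes therefore decided its order in experiment 2: level with and without TCE in the first, and high only with TCE in the second. With rhIL-7-hyFc 1.25 mg/kg, Itgb7 went from 92.7 to 116 CPM and Itgal from 154 to 177 CPM between the sets. These levels are sums over barcodes, so fewer barcodes with an RNA and less of it per barcode cannot be told apart from them alone.

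**Figure D1:**
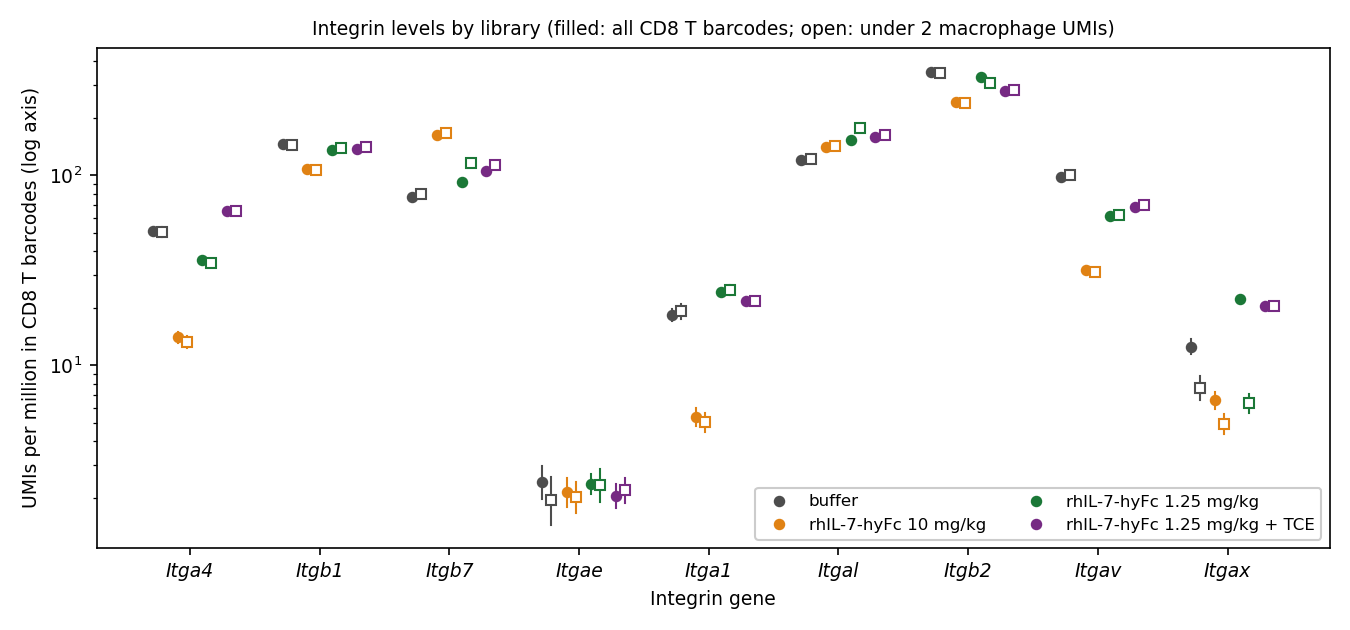
CPM (log axis) of each integrin in the 4 libraries, filled circles for all CD8 T barcodes and open squares for those with under 2 macrophage UMIs, with 95% Poisson intervals. In experiment 1, Itga4, Itga1 and Itgav sit lower with rhIL-7-hyFc 10 mg/kg than in buffer, and Itgb7 sits higher. Itgax with rhIL-7-hyFc 1.25 mg/kg moves from 22.2 to 6.31 CPM between filled and open symbols.

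The share of barcodes with a UMI was set at equal depth by thinning each barcode to 3000 UMIs, which left out 692, 187, 575 and 424 shallower barcodes. Itga4 was then found in 13.7%, 3.83%, 8.85% and 13.4% of barcodes (30.5%, 10.8%, 22.4% and 27.8% unthinned). Reference macrophage barcodes, with at least 10 macrophage UMIs and no Cd8 or Cd3 UMI, had median depths of 8122, 13484, 5554 and 6131.5 UMIs and held Itga4 in 5.26%, 17.0%, 15.8% and 19.7%, so its share there was not below that of T cells in 3 of 4 libraries. Itga1 was found in 5.21%, 1.10%, 6.54% and 6.50% of CD8 T barcodes against 3.35% and 4.92% of macrophage barcodes in experiment 2. In experiment 1 it was found in 0 of 57 and 0 of 106 macrophage barcodes, which by a limit of 3 counts allows a share of barcodes with a UMI of up to 5.26% and 2.83%. Unthinned, 3 of 115 macrophage barcodes held Itga1 with rhIL-7-hyFc 10 mg/kg. Unthinned, Itga1 was found in 14.2%, 4.32%, 18.3% and 14.4% of CD8 T barcodes, Itgal in 60.2% to 70.0%, Itgax in 5.23% to 13.8% and Itgae in 1.13% to 1.69%. Itgal, the alpha chain of LFA-1, was found in 29.0% to 38.4% of CD8 T barcodes against 1.75% to 13.1% of macrophage barcodes. Itgax went the other way, with 1.62% to 4.76% of CD8 T barcodes against 8.20% to 26.4% of macrophage barcodes. Itgae was found in 0.460% to 0.731% of CD8 T barcodes. Among 626 macrophage barcodes with rhIL-7-hyFc 1.25 mg/kg its share was 0.319%.

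Experiment 1 compared rhIL-7-hyFc 10 mg/kg with buffer. Of the 8 measured integrins 1 was at least 1.5-fold higher and 4 were at least 1.5-fold lower, against 6.33% higher and 21.4% lower among all 9067 measured genes. The members' median log2 ratio was -0.68 and that of all genes -0.20. TMM scaling, which assumes that most genes do not change, moved the log2 ratios by 0.21 and turned the background into 11.1% higher and 14.1% lower, with the members' counts still at 1 and 4. Itga4 had the lowest ratio of treated to buffer, 0.276 (0.255 to 0.300), followed by Itga1 at 0.292 (0.255 to 0.332), Itgav at 0.324 (0.307 to 0.342) and Itgax at 0.521 (0.456 to 0.595). The interval of Itga1 overlaps those of Itga4 and Itgav, and Itgax lies apart. Itgb7 was the higher one, with a ratio of 2.13 (2.05 to 2.22). Itgb1 at 0.742, Itgb2 at 0.695 and Itgal at 1.17 stayed within 1.5-fold, and Itgae at 0.889 (0.680 to 1.16) was under 5 CPM in both libraries. The macrophage-low barcodes gave the same 1 and 4 of 8, with Itgax at 0.644 (0.533 to 0.778), against 7.16% higher and 19.9% lower among all genes.

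The make-up of the CD8 T barcodes differed at the same time. Barcodes with a Pdcd1 UMI (PD-1, an inhibitory receptor of antigen-experienced cells) made up 67.1% of the buffer library and 17.4% with rhIL-7-hyFc, and clonotypes seen in 1 barcode made up 34.1% and 87.9% of barcodes with a paired TCR. Itgb7 differed by that split: in clonotypes seen once its ratio of treated to buffer was 0.962 (0.912 to 1.01), in barcodes without a Pdcd1 UMI 1.11 (1.06 to 1.18) and in clones of 5 or more barcodes 1.67 (1.44 to 1.92). With each clonotype counted once, its log2 ratio was -0.02 against 1.08 over all barcodes. Itga1 and Itgav did the reverse: in clones of 5 or more their ratios were 1.12 (0.924 to 1.34) and 1.02 (0.941 to 1.11), and in clonotypes seen once 0.182 (0.129 to 0.257) and 0.335 (0.296 to 0.379). Itga4 was lower with rhIL-7-hyFc on both sides, at 0.257 (0.224 to 0.294) in clonotypes seen once and 0.620 (0.516 to 0.740) in clones of 5 or more. The differences between these strata were not tested. Clone classes are not fully comparable between libraries, since they depend on the number of barcodes with a paired TCR. There were 2766 such barcodes in buffer and 5092 with rhIL-7-hyFc 10 mg/kg. In the buffer library, barcodes without a Pdcd1 UMI carried 3390 CPM of the macrophage list and 523 CPM of a dendritic cell list (260.2 and 5.17 CPM with rhIL-7-hyFc). In the macrophage-low barcodes those lists stood at 73.9 and 642 CPM in buffer, so the dendritic cell RNA was not removed. Its part in the ratios of barcodes without Pdcd1 was not tested.

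Experiment 2 compared rhIL-7-hyFc 1.25 mg/kg with and without TCE. Of 8 measured integrins 1 was at least 1.5-fold higher and 0 were lower, against 2.54% higher and 9.01% lower among all 9308 measured genes. The higher one was Itga4, at 64.7 CPM with TCE and 35.8 CPM without, a ratio of 1.81 (1.73 to 1.88). It was 1.89 (1.78 to 2.00) in the macrophage-low barcodes and 2.36 (2.16 to 2.58) in clonotypes seen once, against 1.5 (1.38 to 1.63) in clones of 5 or more. A paired TCR was found in 6371 barcodes without TCE and 7420 with it, so those clone classes are not fully comparable either. The other 7 measured chains but Itgax lay between 0.849 (Itgb2) and 1.14 (Itgb7). Itgax was at 0.926 (0.871 to 0.984) over all CD8 T barcodes and at 3.24 (2.85 to 3.70) in the macrophage-low ones, where 2 of 8 members were higher against 1.69% of all genes and 0 lower against 2.71%. The macrophage-low set differs in depth and state too: with rhIL-7-hyFc 1.25 mg/kg it keeps barcodes of median 5346 UMIs and drops those of median 14957 UMIs (6410 and 16336 in the combination). It drops 50.8% of barcodes with a Pdcd1 UMI and 19.4% of those without there, against 11.5% and 3.85% in the combination. Their part in the Itgax shift was not tested.

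**Figure D2:**
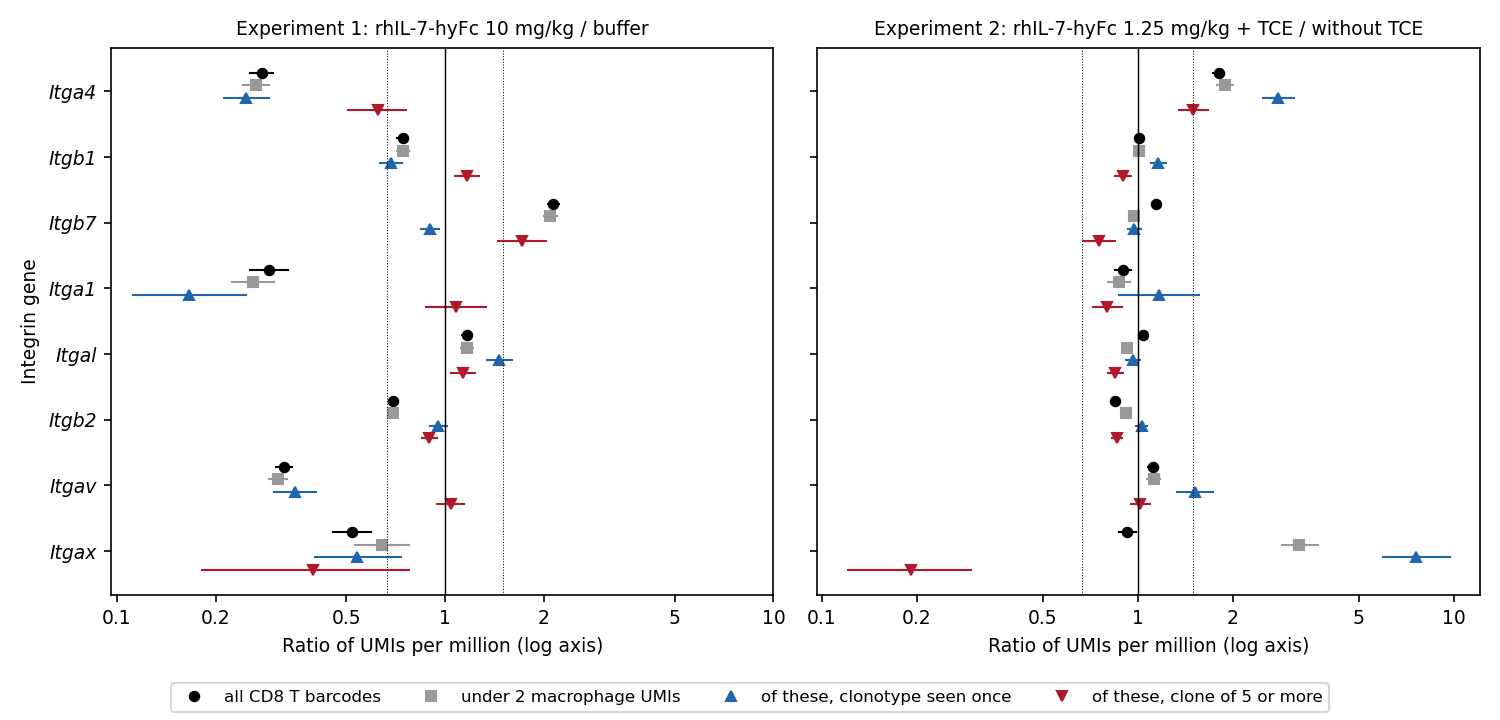
Ratio of CPM (log axis) of treated to control in each experiment, with 95% counting intervals and dotted lines at 1.5-fold; Itgae, under 5 CPM, is left out. Itgb7 is near 1 in clonotypes seen once in both experiments, Itga1 and Itgav are near 1 in clones of 5 or more in experiment 1, and Itgax with TCE spans 0.192 in clones of 5 or more to 7.56 in clonotypes seen once among macrophage-low barcodes. Clone classes depend on the number of barcodes with a paired TCR, which differed between libraries.

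Barcodes with a Pdcd1 UMI were next set against those without one inside each library. Of 8 measured members, 3 were at least 1.5-fold higher and 2 lower in buffer, where 9.07% and 17.9% of all genes were. The counts were 5 and 1 with rhIL-7-hyFc 10 mg/kg (20.3% and 8.25% of all genes), 2 and 1 with rhIL-7-hyFc 1.25 mg/kg (14.9% and 8.36%) and 2 and 2 in the combination (11% and 5.55%). In macrophage-low barcodes with rhIL-7-hyFc 1.25 mg/kg they were 4 and 1 (18.1% and 10.6%). A UMI is more often seen in deep barcodes: those with Pdcd1 had median depths of 7190.5 to 13173 UMIs, and those without 5135 to 9382.

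Itga1 and Itgav were higher with Pdcd1, and Itgb7 was lower, in each of the 4 libraries. Itga1 stood at 10.0 CPM without and 20.8 CPM with Pdcd1 in buffer, at 1.12 and 18.7 CPM with rhIL-7-hyFc 10 mg/kg, at 6.47 and 30.6 CPM with rhIL-7-hyFc 1.25 mg/kg and at 5.88 and 28.6 CPM in the combination. In experiment 1 the ratio was thus smaller in buffer, 2.07 (1.66 to 2.60), where the level without Pdcd1 was higher. With rhIL-7-hyFc 10 mg/kg it was 16.7 (12.3 to 22.9). Itgav had ratios of 1.88, 6.96, 3.16 and 2.96 in the same order of libraries. Itgb7 had ratios of 0.294 (0.274 to 0.315), 0.452, 0.409 and 0.411, from 165 to 189 CPM without Pdcd1 to 49.8 to 85.2 CPM with it. Itgb2, the common chain of the leukocyte integrins, was 1.58, 1.55, 1.35 and 1.19 times as high with Pdcd1. Itga4 and Itgb1 had no common direction: Itga4 had ratios of 0.698, 1.95, 1.41 and 0.981. Itgax was lower with Pdcd1 in buffer (0.226) and in the combination (0.332), at 0.668 with rhIL-7-hyFc 10 mg/kg and at 1.33 with rhIL-7-hyFc 1.25 mg/kg. In the last library the macrophage list summed to 3772 CPM with Pdcd1 and 2311 CPM without, and its part in that ratio was not tested. In macrophage-low barcodes the ratio there was 1.31 (1.02 to 1.69). In buffer, the barcodes without Pdcd1 carried the macrophage and dendritic cell RNA given above for experiment 1. The part of that RNA in the buffer ratio of 0.226 was not tested.

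The Itgb7 ratios by Pdcd1 were nearer to 1 among clonotypes seen once, at 0.729, 0.760, 0.711 and 0.951. Itgae, in contrast, was higher with Pdcd1 among those clonotypes in both libraries with rhIL-7-hyFc alone: 5.34 against 1.78 CPM with rhIL-7-hyFc 10 mg/kg (ratio 3.00, 1.76 to 4.92), 9.54 against 3.10 CPM with rhIL-7-hyFc 1.25 mg/kg (3.07, 2.07 to 4.56), from 21 to 75 UMIs a stratum. In the combination it was at 4.96 against 1.60 CPM (3.09, 1.88 to 5.14), under 5 CPM in both. In buffer it was 1.02 (0.537 to 1.93). Itgae UMIs were clumped: over the whole library, 132 lay in 79 barcodes with rhIL-7-hyFc 10 mg/kg and 261 in 184 with 1.25 mg/kg. The intervals count each UMI on its own, so they can be too narrow here.

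Clone size was read from the paired alpha and beta TCR sequences, comparing barcodes of clones of 5 or more with clonotypes seen once. In buffer 3 of 9 measured members were higher and 3 lower (13.9% and 9.38% of all genes), with rhIL-7-hyFc 10 mg/kg 4 and 2 of 8 (23.8% and 11.3%), with rhIL-7-hyFc 1.25 mg/kg 2 and 1 of 8 (13.3% and 9%) and in the combination 2 and 2 of 8 (12% and 7.51%). In macrophage-low barcodes with rhIL-7-hyFc 1.25 mg/kg it was 4 and 1 of 8 (18.3% and 11.9%). Clones of 5 or more held 1586, 404, 2531 and 3394 barcodes, and barcodes of a clone share their source. Of barcodes with a Pdcd1 UMI, the paired TCR was found in 77.8%, 89.8%, 51.4% and 67.0%.

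Itgb7 was lower in large clones in each of the 4 libraries. It stood at 193, 186, 164 and 180 CPM in clonotypes seen once and at 27.0, 45.0, 48.4 and 31.4 CPM in clones of 5 or more, ratios of 0.140 (0.127 to 0.154), 0.243 (0.215 to 0.273), 0.294 (0.275 to 0.315) and 0.174 (0.162 to 0.188). In experiment 1 the level in clonotypes seen once was thus close in both libraries, although over all barcodes it differed 2.13-fold. Among barcodes with a Pdcd1 UMI alone the ratios were 0.140, 0.316, 0.378 and 0.178, so Itgb7 differed by clone size within that state too. Itgae followed Itgb7 there: 5.23, 5.34, 9.54 and 4.96 CPM in unexpanded barcodes with Pdcd1 against 0.957, 0.499, 0.877 and 0.534 CPM in large clones with Pdcd1, ratios from 0.0919 to 0.183. The lowest of these levels rests on 3 UMIs, and both levels of the combination are under 5 CPM.

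Itga1 and Itgav had the opposite order by clone size. Itga1 stood at 8.35, 1.52, 7.07 and 5.69 CPM in clonotypes seen once and at 21.8, 24.4, 40.3 and 38.3 CPM in clones of 5 or more, with ratios of 2.61 (2.03 to 3.40), 16.0 (12.0 to 21.6), 5.71 (4.83 to 6.78) and 6.74 (5.67 to 8.05). Itgav had ratios of 2.36, 7.21, 3.62 and 3.28, and Itgb2 of 1.67, 1.69, 1.43 and 1.32. Within barcodes with Pdcd1 the ratios were smaller, 2.17 to 3.55 for Itga1 and 1.78 to 2.15 for Itgav. Itga4 and Itgb1 were within 1.5-fold by clone size in 3 and 4 libraries, Itga4 at 2.07 (1.71 to 2.49) with rhIL-7-hyFc 10 mg/kg being the exception, and Itgal lay between 0.959 and 1.25. Clones of 2 to 4 lay between the other classes for each of the chains in the plot by clone size.

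**Figure D3:**
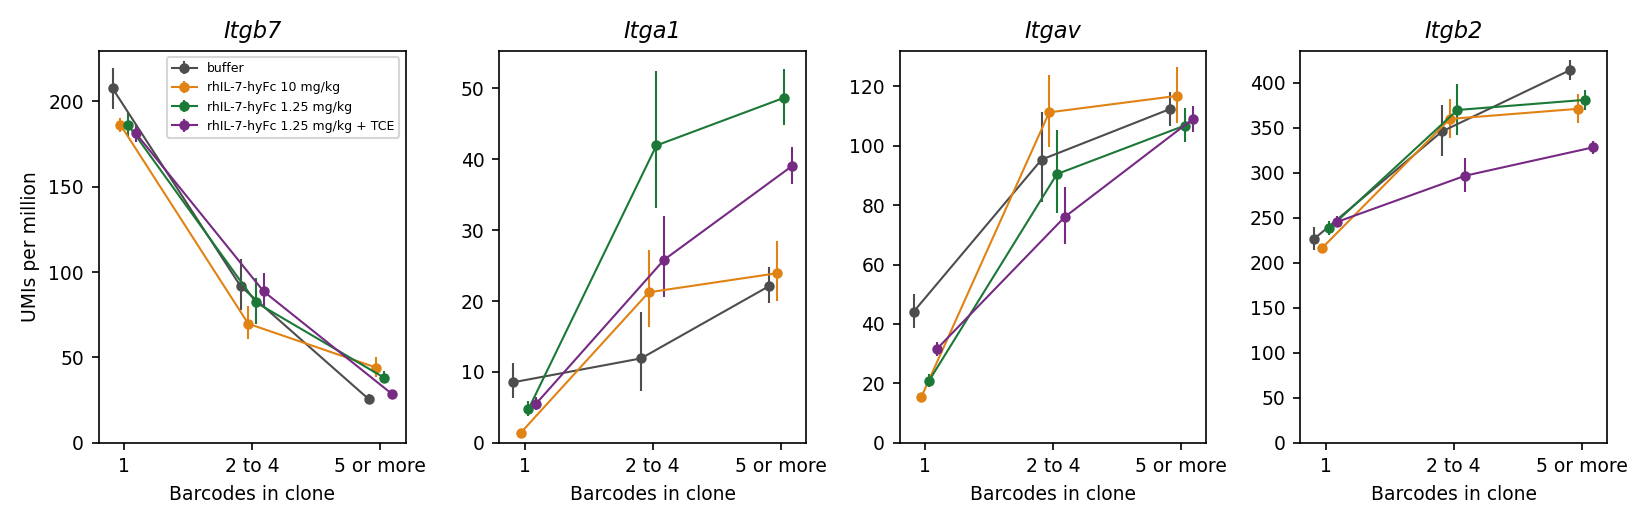
CPM of 4 integrins by clone size in macrophage-low CD8 T barcodes of each library, with 95% Poisson intervals. Itgb7 lies at 181 to 208 CPM in clonotypes seen once and at 25.7 to 44.1 CPM in clones of 5 or more, while Itga1, Itgav and Itgb2 are higher in the large clones.

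Single clones varied around these means. The 5 largest clones of each library (4 with rhIL-7-hyFc 10 mg/kg, where fewer reached 20 barcodes) held 62 to 152, 20 to 29, 67 to 177 and 78 to 543 barcodes. Their Itgb7 level ran from 0.656 to 34.1 CPM in buffer and 24.3 to 116 CPM with rhIL-7-hyFc 10 mg/kg. It ran from 15.7 to 99.4 CPM with rhIL-7-hyFc 1.25 mg/kg and 7.81 to 64.6 CPM in the combination. The lowest level, 0.656 CPM (0.0166 to 3.66), rests on 1 UMI in 91 barcodes. In the combination, the largest clone, of 543 barcodes, had 7.81 CPM (5.34 to 11) and the next one, of 181 barcodes, 64.6 CPM (51.7 to 79.8), while 97.6% and 96.7% of their barcodes had a Pdcd1 UMI. Itga1 ranged from 18.0 to 85.6 CPM among the same 5 clones, and Itgal from 156 to 180 CPM. Itgal and Itgb2 differed by at most 1.70-fold between clones of a library, and Itgb7 by 4.78-fold or more. The 4.78-fold, with rhIL-7-hyFc 10 mg/kg, rests on 7 and 19 UMIs in clones of 20 and 21 barcodes.

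Gzma encodes granzyme A, a protease of killer cell granules. Barcodes with 5 or more Gzma UMIs made up 5.96% of the buffer library, 10.4% with rhIL-7-hyFc 10 mg/kg, 7.38% with rhIL-7-hyFc 1.25 mg/kg and 28.2% of the combination (237, 584, 803 and 3087 barcodes). This is a range of counts and not a cell type: 45, 163, 217 and 184 barcodes had 4 or 5. Against barcodes with 0 Gzma UMIs, 4 of 9 measured members were higher and 0 lower in buffer (5.60% and 16.6% of all genes), 1 and 0 of 8 with rhIL-7-hyFc 10 mg/kg (2.83% and 2.94%), 1 and 0 of 8 with rhIL-7-hyFc 1.25 mg/kg (0.686% and 0.817%) and 3 and 2 of 8 in the combination (3.91% and 5.67%). Macrophage-low barcodes gave 4 and 1 of 9 in buffer (7.37% and 17.5%) and 2 and 0 of 8 with rhIL-7-hyFc 1.25 mg/kg (3.24% and 5.36%).

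Itgax was the 1 integrin past 1.5-fold with Gzma in all 4 libraries when each was read as a whole. Over all CD8 T barcodes it stood at 10.9 and 41.4 CPM in buffer (ratio 3.78, 2.94 to 4.82), at 6.22 and 9.70 CPM with rhIL-7-hyFc 10 mg/kg (ratio 1.56, 1.18 to 2.03), at 19.6 and 32.7 CPM with rhIL-7-hyFc 1.25 mg/kg (ratio 1.66, 1.48 to 1.86) and at 3.46 and 50.5 CPM in the combination (14.6, 12.5 to 17.2). With rhIL-7-hyFc 10 mg/kg it was within 1.5-fold among clonotypes seen once (1.31, 0.925 to 1.82), which held 481 of the 584 barcodes with high Gzma, and among barcodes without Pdcd1 (1.16, 0.829 to 1.60), which held 492. In macrophage-low barcodes the ratios were 7.72, 1.58, 6.01 and 30.8, the last from 1.82 to 56.1 CPM. The macrophage list there summed to 12.7 CPM in combination barcodes without Gzma and to 15.0 CPM in those with 5 or more. Those barcodes were chosen by under 2 UMIs of that same list, which holds both sums low. The source of the Itgax RNA was not tested. Itgam, the alpha M chain of myeloid and NK cells, was at 0.346 and 9.86 CPM in the same barcodes, and Trac at 274.4 and 278.3 CPM. In buffer an NK cell list was higher with Gzma among macrophage-low barcodes, at 352 against 80.0 CPM, with Ncr1, which defines NK cells, at 1.58 and 18.2 CPM, and its part in the buffer ratio was not tested. In the combination the NK cell list summed to 62.4 CPM without Gzma and 84.9 CPM with 5 or more UMIs, with Ncr1 at 0.208 and 1.09 CPM, and its part was not tested either.

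Itgax by Gzma range was also read by clone size within each library. In the combination, clonotypes seen once had 3.41 CPM without Gzma and 65.3 CPM with 5 or more Gzma UMIs (ratio 19.2), and clones of 5 or more had 1.78 and 6.84 CPM. In buffer, clonotypes seen once had 9.49 and 16.5 CPM and clones of 5 or more 4.16 and 55.9 CPM. Within the combination the high Itgax thus lay in unexpanded barcodes. Within buffer it lay in expanded ones, from 39 UMIs in 80 barcodes. These libraries belong to different experiments, and the difference between them was not tested. Over all its CD8 T barcodes the combination had Itgax at 38.1 CPM in clonotypes seen once and 2.56 CPM in clones of 5 or more, a ratio of 0.0671 (0.0513 to 0.0864), against 0.644, 0.638 and 1.23 in the other libraries.

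Itgb7 was higher with Gzma in buffer (2.99, 2.68 to 3.34) and in the combination (2.45, 2.35 to 2.56), and within 1.5-fold in both libraries given rhIL-7-hyFc alone, at 0.988 (0.927 to 1.05) for 10 mg/kg and 1.24 (1.16 to 1.31) for 1.25 mg/kg. In macrophage-low barcodes the ratio with rhIL-7-hyFc 1.25 mg/kg was past 1.5-fold, 1.77 (1.60 to 1.95). Within clones of 5 or more the ratio was 11.8 in buffer, from 19.2 to 226 CPM, 4.23 with rhIL-7-hyFc 10 mg/kg, 3.46 with rhIL-7-hyFc 1.25 mg/kg and 1.46 in the combination. Within clonotypes seen once it was 0.734, 0.850, 1.13 and 1.54. Barcodes of large clones with high Gzma in buffer thus had Itgb7 near the level of unexpanded barcodes, in the library where the NK cell list moved with Gzma too. Itga4 was past 1.5-fold with Gzma in the combination alone, 90.6 against 49.7 CPM (1.82, 1.73 to 1.92), and among clonotypes seen once there 98.6 against 30.9 CPM. Itga1 and Itgav were lower with Gzma in the combination, at 0.523 (0.469 to 0.583) and 0.602 (0.567 to 0.639). Itgb1 was past 1.5-fold in buffer alone (1.72, 1.56 to 1.89), where Itgae had 7.15 against 1.94 CPM, and Itgal and Itgb2 stayed within 1.5-fold in all 4 libraries.

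**Figure D4:**
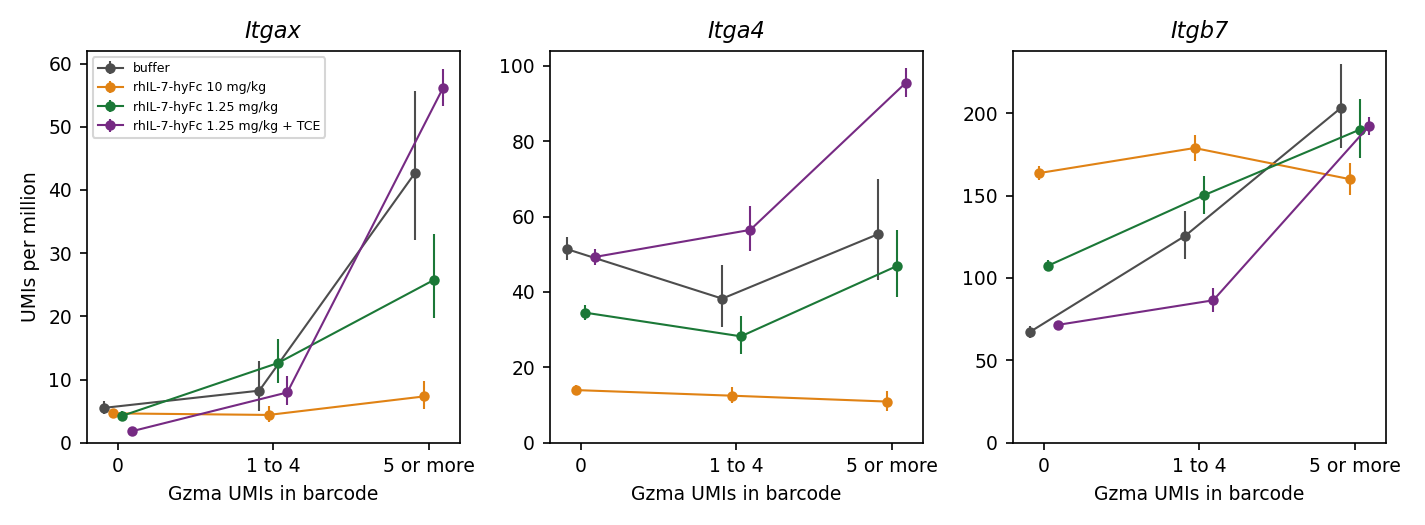
CPM of Itgax, Itga4 and Itgb7 by Gzma UMIs per barcode in macrophage-low CD8 T barcodes, with 95% Poisson intervals. Itgax reaches 42.7 CPM in buffer, 25.7 CPM with rhIL-7-hyFc 1.25 mg/kg and 56.1 CPM in the combination at 5 or more Gzma UMIs, and 7.35 CPM with rhIL-7-hyFc 10 mg/kg.

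**Figure D5:**
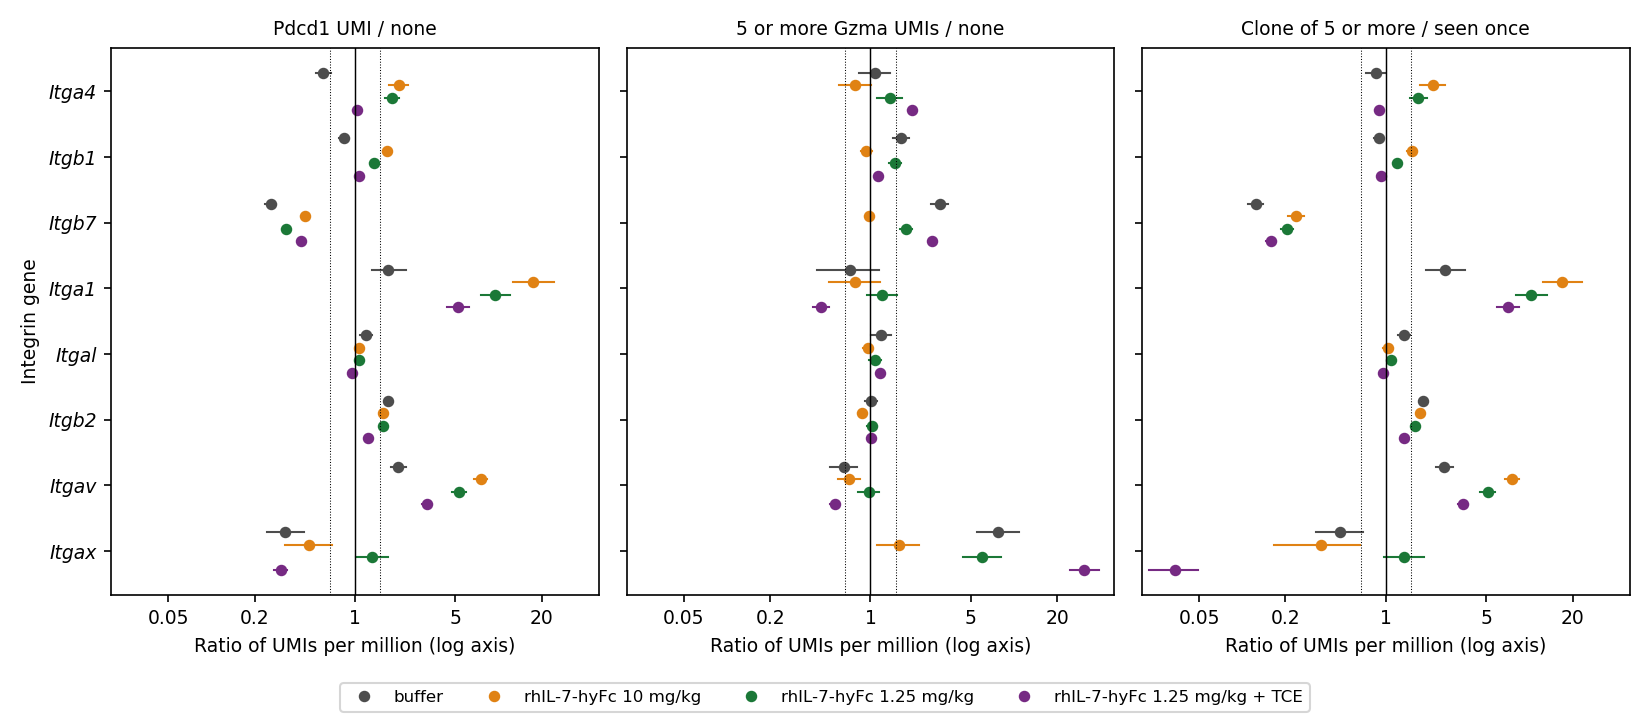
Ratios of CPM (log axis) within each library by Pdcd1 state, Gzma range and clone size in macrophage-low CD8 T barcodes, with 95% counting intervals and dotted lines at 1.5-fold; Itgae is left out. By Pdcd1 and clone size, Itgb7 is left of 1 and Itga1 and Itgav are right of 1 in all 4 libraries, and Itgal stays near 1 in all 3 panels.

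The TCE difference was repeated within these ranges. Itga4 was higher with TCE among barcodes with 5 or more Gzma UMIs, 2.28 (2.06 to 2.52), and at 1.37 (1.30 to 1.45) among those without Gzma. Itgax was at 1.55 (1.38 to 1.74) in the first and 0.176 (0.150 to 0.206) in the second, and at 2.54 (2.25 to 2.88) in clonotypes seen once and 0.138 (0.104 to 0.180) in clones of 5 or more. Itgb7 was at 1.57 (1.47 to 1.67) and 0.789 (0.758 to 0.821) by Gzma range over all barcodes, and at 1.01 (0.918 to 1.12) and 0.665 (0.634 to 0.698) in macrophage-low ones. Itga1 was at 0.522 (0.449 to 0.606) among barcodes with 5 or more Gzma UMIs and at 1.07 (1.00 to 1.15) without. In the rhIL-7-hyFc 1.25 mg/kg library 55.0% of barcodes with 5 or more Gzma UMIs and 35.5% of those without carried 2 or more macrophage UMIs, against 11.7% and 7.09% in the combination. None of these differences between ranges was tested.

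Chain pairs were read in single barcodes thinned to 3000 UMIs, as the share with the beta chain among barcodes with and without the alpha chain. Itgae and Itgb7 went together the most: 19 of 24 barcodes with Itgae (79.2%, 57.8% to 92.9%) held Itgb7 in buffer against 20.4% of those without it. The shares were 76.0% and 37.6% with rhIL-7-hyFc 10 mg/kg (19 of 25), 54.1% and 24.1% with rhIL-7-hyFc 1.25 mg/kg (40 of 74) and 53.8% and 23.7% in the combination (28 of 52). Most Itgb7 barcodes nonetheless held no UMI of either alpha partner, 82.6% to 95.1%. At 3000 UMIs a barcode, absence of Itga4 and Itgae RNA and missed capture of it cannot be told apart. Itga4 barcodes held Itgb1 in 38.1% against 30.1%, 32.7% against 24.3%, 34.3% against 29.5% and 35.5% against 30.5%. Thinned to 5000 UMIs, the intervals of that pair overlapped with rhIL-7-hyFc 10 mg/kg (39.9% against 36.6%) and 1.25 mg/kg (46.2% against 43.2%). Itga4 barcodes held Itgb7 in 22.8% against 20.5%, 38.9% against 37.7%, 23.9% against 24.3% and 26.8% against 23.4%. At 3000 UMIs those intervals lay apart in the combination alone. Thinned to 5000 UMIs they overlapped there (35.3% against 32.5%). With rhIL-7-hyFc 1.25 mg/kg they then lay apart in the other direction (28.2% against 32.2%). Itgal barcodes held Itgb2 in 66.1% against 58.7%, 51.5% against 47.6%, 61.2% against 57.0% and 56.4% against 54.4%, with overlapping intervals in the second and the last. Itga1 with Itgb1, Itgav with Itgb1 and Itgax with Itgb2 were read too. At 3000 UMIs their intervals lay apart with rhIL-7-hyFc 10 mg/kg: 40.0% against 24.5%, 32.4% against 24.1% and 69.3% against 48.6%. Elsewhere they overlapped, except Itga1 with Itgb1 in the combination (36.5% against 30.8%), which overlapped at 5000 UMIs. Itgax with Itgb2 changed with depth: at 5000 UMIs it overlapped with rhIL-7-hyFc 10 mg/kg and lay apart in buffer and with 1.25 mg/kg. Between 10.0% and 15.3% of thinned barcodes held no UMI of any of the 9 genes.

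The pattern of each chain but Itgae was set against 5934 genes over 24 strata (library, Pdcd1 state and Gzma range). The measure was Pearson's r of log2 levels centred within each library. The strata of a library share its preparation and barcodes, and r is a description. The closest genes were Ccdc50, Nr4a2 and Serpinb6a for Itgav (0.993 to 0.985), Dkkl1, Pdcd1lg2 and Galnt3 for Itga1 (0.978 to 0.977), Spn, Erp44 and Cd48 for Itgb2 (0.973 to 0.965) and Cxcr3, Pik3r5 and S1pr1 for Itgb7 (0.952 to 0.934). S1pr1 is the receptor that leads lymphocytes out of tissue and Nr4a2 a gene of recent antigen receptor signals. Itgal was closest to Ppp1r18 (0.929), Itgb1 to Smap1 (0.885), Itgax to the chemokine receptor gene Ccr2 (0.866) and Itga4 to Emp3 (0.863). Among the members, Itga1 and Itgav had r = 0.946, Itga1 and Itgb2 0.868, and Itgb7 and Itgav -0.774.

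Other genes of integrin biology were counted by lists. Of 17 other integrin chains 4 were measured in experiment 1, with 0 higher and 2 lower, and in macrophage-low barcodes 2 were measured with neither changed by 1.5-fold. In experiment 2 it was 7 measured, 0 higher and 4 lower, and again 2 measured and 0 of either in macrophage-low barcodes. Itgam was at 19.4 CPM with TCE and 69.1 CPM without over all CD8 T barcodes, and at 3.49 and 0.839 CPM, under 5 CPM in both, in macrophage-low ones. Itgb3, a beta partner of alpha V, stood at 30.3 CPM with TCE and 25.5 CPM without. Among 20 ligand genes 8 were measured in each experiment, with 1 higher and 3 lower in the first and 0 and 3 in the second. In macrophage-low barcodes 6 were measured in each, with 1 and 2 in the first and 0 and 1 in the second. Icam2, a ligand of LFA-1, was the higher one at 1.68, and Spp1, osteopontin, a ligand of alpha V and alpha 4 integrins, was at 0.238 in experiment 1 and 0.512 in experiment 2 (0.884 in macrophage-low barcodes). Of 32 genes of integrin activation 29 were measured in experiment 1, with 3 higher and 1 lower: Rasgrp2 (2.60), the activator of Rap1 that switches LFA-1 on, Cyth1 (1.58) and Skap1 (1.56) were higher. In experiment 2, 1 of 30 was higher, Rasgrp2 at 2.13, and 0 were lower.

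TGF-beta is the signal that raises Itgae in resident T cells. Of 19 genes of that pathway 13 were measured in experiment 1, with 4 higher and 0 lower, among them the feedback genes Pmepa1 (2.16) and Smad7 (2.03). In experiment 2, 14 were measured with 0 of either, and in macrophage-low barcodes 1 was higher and 2 were lower, Pmepa1 at 0.539. Of 15 residency genes found in the counts, 13 were measured in experiment 1, with 0 higher and 7 lower (Cxcr6 0.307, Rgs1 0.338, Litaf 0.359), and of 10 circulation genes 9 were measured with 5 higher and 1 lower (S1pr1 4.37, Cx3cr1 0.279). In experiment 2 the counts were 0 higher and 5 lower of 16 residency genes (0 and 2 of 15 in macrophage-low barcodes; Xcl1 0.564) and 1 higher and 1 lower of 9 circulation genes (0 and 3 in macrophage-low barcodes; S1pr4 1.69). Of 15 adhesion partners, 1 was higher and 8 lower in experiment 1 and 0 and 4 in experiment 2 (1 and 7, and 0 and 2, in macrophage-low barcodes), with the tetraspanin Cd63 at 0.0634 and 0.218. The backgrounds for the list counts over all CD8 T barcodes are the same 6.33% higher and 21.4% lower in experiment 1 and 2.54% and 9.01% in experiment 2. For macrophage-low barcodes they are 7.16% and 19.9%, and 1.69% and 2.71%.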

How the data were processed

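Droplet 5′ single-cell RNA libraries with paired TCR libraries were made from 4 groups. The authors deposited raw UMI counts per gene and barcode from Cell Ranger 4.0.0 in experiment 1 and 6.1.2 in experiment 2 (per the file headers). The submitters' processing notes name build GRCm38, and no Cell Ranger version was found for the TCR files. Barcodes were filtered as stated in the report (macrophage-low: under 2 macrophage UMIs), counts were summed per library and stratum, and CPM was taken over all UMIs of the stratum. Levels have exact Poisson intervals, ratios exact conditional binomial intervals and shares Clopper-Pearson intervals, all at 95%. A gene was measured from 5 CPM in 1 of the 2 sums compared and counted as higher or lower from 1.5-fold; log2 ratios use a pseudocount of 1 CPM. A clonotype is the pair of nucleotide CDR3 sequences of the alpha and beta chain with the most UMIs. Thinning used seed 7. TMM factors came from edgeR 4.0.16 and size factors from DESeq2 1.42.0 (R 4.3.3), with no model fitted; the rest used Python 3.11.15, numpy 2.4.6 and scipy 1.17.1. The ratios and intervals were tried on simulated Poisson counts per gene and library. That simulation held no variation between barcodes, clones or mice, so it bears on counting error only. List genes were named from the 3 with the largest absolute log2 ratio per list and contrast among those of at least 20 CPM in 1 library; similar genes were the 3 with the highest r, over strata of at least 50 barcodes, on log2(CPM + 5), without TCR, immunoglobulin, mitochondrial and ribosomal genes, Pdcd1 and Gzma. The members, lists and alternatives were chosen with earlier results of these data known. A gene that the naming rule selects is not reported here.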

Additional observations from a re-analysis of the deposited data

Results flagged for a closer look

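The TCE difference of Itgax had opposite directions in complementary classes of barcodes of the same pair of libraries; none of these differences was tested, since each group was 1 library. By Pdcd1 state, the log2 ratio of the combination to rhIL-7-hyFc 1.25 mg/kg was 1.08 in barcodes without a Pdcd1 UMI and -0.829 in those with one. In macrophage-low barcodes the second turned direction, with a ratio of 1.63. By Gzma range, it was -2.21 in barcodes with 0 Gzma UMIs and 0.613 in those with 5 or more. By clone size, it was 1.29 in clonotypes seen once and -2.46 in clones of 5 or more. The last pair kept both directions in macrophage-low barcodes, with ratios of 7.56 and 0.192.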

How the results depend on the processing

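No paired analysis was possible because each group was 1 library. With each clonotype counted once, the log2 ratio of Itgb7 in experiment 1 was -0.0194 against 1.08, 0 members were higher in experiment 1 against 1, and 2 were higher and 1 lower in experiment 2 against 1 and 0. A minimum of 20 CPM left 2 lower members in experiment 1 against 4. In experiment 2, 2 members were higher with under 2 macrophage UMIs, with no macrophage UMI, and with under 2 macrophage UMIs and under 2 beta chains (the last chosen after seeing the data), and 0 were at a limit of 2-fold. Thinning to 3000 UMIs gave 14 higher and 4 lower pairs of member and library by Gzma range, against 9 and 2. Of 288 treatment values under alternatives, 170 stayed within counting error, 117 moved beyond it and 1 reversed. Of 360 values by Pdcd1, Gzma or clone size, 251 stayed and 109 moved. Only members past 1.5-fold in the main setting could count as reversed. Other changes of sign are among the values that moved or stayed. For example, the log2 ratio of Itgax in experiment 2 went from -0.106 to 1.55 in macrophage-low barcodes. The cause of these shifts was not tested. Itgae rested on 100 to 261 UMIs a library, and its low expression and missed capture cannot be told apart.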
